A study of Mus musculus with 8 samples.

Results

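The genes described here encode the isozymes of every step of glycolysis, the enzymes that set the level of its main allosteric activator, and carriers of glucose and lactate. They were taken by symbol, 34 of the 24411 genes in the deposited table, by a rule that uses no measured value, although the set was drawn up with earlier results of these data known. RNA was sequenced from plated mouse hepatocytes, harvested 2 days after plating, of 2 genotypes: 4 libraries from wild-type mice (label WT) and 4 from mice whose hepatocytes carry a conditional Taf2 knockout (label TAF2 KO). Taf2 encodes a subunit of TFIID, the complex that recognises core promoters. The sources used here do not name the Cre line, the age or strain of the mice, or whether each library came from its own animal, so the p-values measure the spread between these libraries, which may be technical.

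Glycolysis splits glucose into pyruvate in the cytosol. Most of its steps can be run by more than a single isozyme, and the liver has its own set, among them the pyruvate kinase Pklr and the low-affinity glucose carrier Slc2a2, which fit a tissue that both takes up and releases glucose. Hexokinase 1 and 2, Pkm, Pfkp, Pfkfb3, Slc2a1 and the lactate exporter Slc16a3 are known from tissues and cultured cells that use glucose as fuel, and many of them are known targets of hypoxia-inducible factors.

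Library totals ran from 18947059 to 23933589 estimated counts. Levels are CPM, counts scaled to library size after TMM normalisation, given for replicates 1 to 4 in that order or as the mean ± SD of 4 libraries, and a gene was called higher or lower at an edgeR quasi-likelihood adjusted p under 0.05. Taf2 stood at 42.5, 46.4, 45.2 and 42.2 CPM in the wild-type libraries and at 13.9, 15.7, 13.4 and 12.7 CPM in the knockout libraries, so every library matched its label, and transcripts of the gene remained, at 31.7% of the wild-type level. The labels do not say which part of the gene the knockout takes out. All 10 hepatocyte markers examined were detected in both genotypes, with sums of 55092 to 60037 CPM by wild-type library and 69568 to 76694 by knockout library. Of these markers 4 were higher, 3 lower and 3 not called, and without Alb and Serpina1c, the most abundant, the sums were lower in the knockout, at 13826 to 15174 and 11922 to 12516 CPM. Markers of other liver cells were present too and differed between the genotypes: 18 macrophage markers summed to 124 to 154 CPM over the wild-type libraries and to 293 to 321 CPM in the knockout libraries (without Cd68 and Mpeg1, the most abundant, 19.9 to 21.3 and 97.6 to 105 CPM), and 18 endothelial markers to 80.7 to 89.3 CPM over the wild-type libraries and to 206 to 214 CPM in the knockout libraries. The 18 stellate cell and fibroblast markers summed to 1272 to 1371 CPM over the wild-type libraries and to 1132 to 1242 CPM in the knockout libraries, and without Vim and Tagln, their most abundant genes, 96.8 to 100.2 and 191 to 206 CPM. No marker of these 3 lists was at 0 in all libraries of a genotype. Beside 30.2% of all tested genes, 16 of 17 tested macrophage markers and 15 of 16 endothelial markers were higher and none lower. Among those higher, Adgre1, Tyrobp and Itgam had under 10 counts in every wild-type library. They passed the filter on low counts through the knockout libraries alone and so had to differ. Of 17 stellate and fibroblast markers 13 were higher and 3 lower. Those lower were Tagln, Acta2 and Vim, with log2 fold changes of -2.34, -1.33 and -0.22. Of those higher, Lum, Col1a2, Pdgfrb and Colec11 also had under 10 counts in every wild-type library and passed the filter through the knockout alone. The 9 neutrophil markers summed to 0.0522 to 0.750 CPM over the wild-type libraries and to 1.95 to 2.45 CPM in the knockout libraries. Without Mmp8 and Csf3r, their most abundant genes, these sums were 0 to 0.260 and 0.216 to 0.381 CPM. Elane and Mpo were at 0 in all libraries, and sums of 9 lymphocyte markers stayed at or below 0.142 CPM. The sums of 9 cholangiocyte markers were 136 to 151 and 171 to 199 CPM, and without Spp1 and Sox9, the most abundant, 41.7 to 45.5 and 30.5 to 33.9 CPM. In such bulk samples a change in the share of a cell type and a change in RNA per cell cannot be told apart, and the part of other cell types in the results below was not tested.

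Most of the enzymes of the main glycolytic route were higher in the Taf2 knockout, while the liver form Pfkfb1, its relative Pfkfb2, Gckr, Tigar, Ldhd, Bpgm and the liver pyruvate kinase Pklr were lower. Of the 34 genes, 30 had enough counts to be tested, 21 were higher, 7 were lower and 2 were not called. Over all 12122 genes tested, 30.2% were called higher and 31.2% lower, 61.4% in all. The median log2 fold change of the tested glycolysis and carrier genes was 0.63, against -0.0035 over all genes. A rise of at least 1 on the log2 scale was seen for 9 of them and a fall of that size for 0, while 6.90% of all genes rose and 2.61% fell that much. The 2 genotypes did not overlap in any library for 28 of the 30 tested genes, and 54.7% of all genes were separated in the same way. Together the 34 genes took 1.38% of the normalised counts in the wild type and 2.22% in the knockout, that is, 13804 ± 411 and 22225 ± 623 CPM. Hk3 passed the filter on low counts through the knockout libraries alone and so had to differ; over the other 29 tested genes 20 were higher, 7 lower, 8 rose by at least 1, 27 did not overlap and the median was 0.60.

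**Figure D1:**
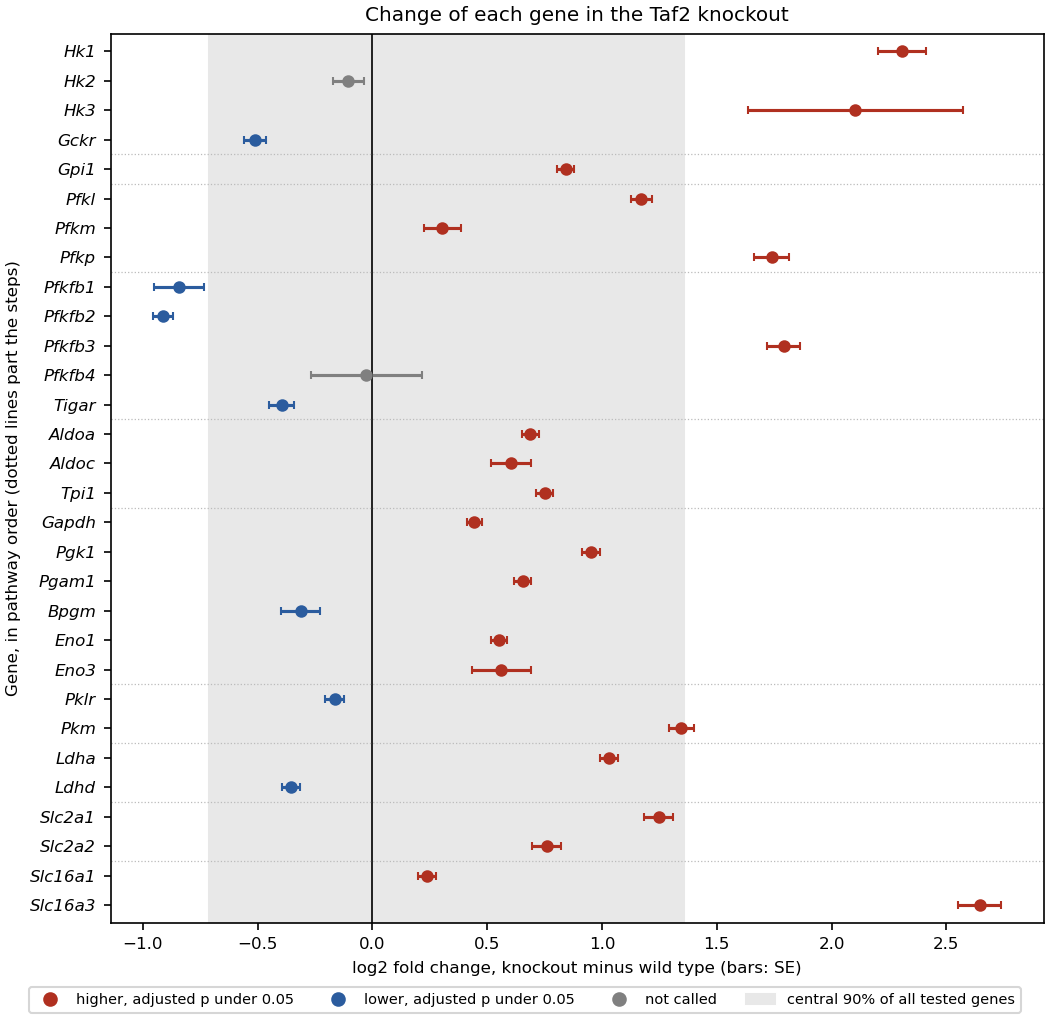
Log2 fold change (knockout minus wild type) with its standard error for the 30 tested genes, in pathway order from hexokinases to lactate carriers. Red and blue points passed the test in either direction and grey points did not; the shaded band holds the central 90% of all tested genes, from -0.71 to 1.36, and Hk1, Hk3 (tested through its knockout counts alone), Pfkp, Pfkfb3 and Slc16a3 lie above it while Pfkfb1 and Pfkfb2 lie below it.

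Glucose enters hepatocytes through facilitative carriers. Slc2a1, the widely expressed carrier GLUT1 (chromosome 4 from 119108745 to 119137330, build mm10), stood at 112, 130.2, 109 and 123 CPM in wild-type cells and at 299.8, 268, 307 and 248 CPM in knockout cells (log2 fold change 1.25 with an SE of 0.062, adjusted p = 7.65e-13 by edgeR). Slc2a2, the hepatocyte carrier GLUT2, stood at 26.1, 27.8, 25.2 and 25.6 CPM and at 46.7, 45.9, 46.9 and 37.3 CPM (log2 fold change 0.76 with an SE of 0.064, adjusted p = 3.09e-09 by edgeR). Both carriers thus rose with no overlap between the genotypes, although knockout replicate 4 was the lowest knockout library for each. Per kilobase of transcript, Slc2a1 was the more abundant carrier in all libraries, at 7.33 to 8.18 times the level of Slc2a2 in the wild type and 9.96 to 11.4 times in the knockout. Slc2a3, a high-affinity carrier of neurons and blood cells, had between 0 and 7 counts in a library and was not tested.

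Hexokinases phosphorylate glucose and so trap it in the cell. Hk1, the housekeeping isozyme (chromosome 10 from 62268855 to 62379920), had 9.28, 11.03, 7.15 and 9.51 CPM in wild-type cells, and 41.5, 42.4, 55.7 and 43.8 CPM in knockout cells (log2 fold change 2.31 with an SE of 0.10, adjusted p = 1.53e-13 by edgeR). Hk2, the insulin- and hypoxia-responsive isozyme of muscle and fat, had 18.05, 19.7, 19.6 and 17.9 CPM and 17.6, 17.2, 19.2 and 15.7 CPM (log2 fold change -0.11 with an SE of 0.068, adjusted p = 0.185 by edgeR). The libraries of the genotypes were wide apart for Hk1 and overlapped for Hk2. Hk3, an isozyme of myeloid cells, was close to the limit of detection and under the minimum count of 10 in every wild-type library, with 7, 2, 0 and 4 counts in the wild-type libraries and 12, 13, 23 and 12 in the knockout libraries (log2 fold change 2.10 with an SE of 0.47, adjusted p = 6.42e-04 by edgeR). Replicate 3 of the knockout was the highest knockout library for 18 of the 21 genes that rose, Hk3 and Hk1 among them. Summed macrophage markers in that library were 320.5 CPM, against 321, 293 and 301 CPM in replicates 1, 2 and 4.

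Gckr, whose protein regulates the entry of glucose into metabolism in the liver, fell from 42.8, 43.3, 47.4 and 46.4 CPM to 33.2, 31.03, 30.99 and 30.9 CPM (log2 fold change -0.51 with an SE of 0.048, adjusted p = 1.38e-08 by edgeR). The genotypes did not overlap, and replicate 1 was the highest of the knockout libraries. Phosphoglucose isomerase, the enzyme after the hexokinases, is encoded by the single gene Gpi1, which stood at 525, 526, 495 and 502 CPM and at 925, 889, 954 and 903 CPM (log2 fold change 0.84 with an SE of 0.036, adjusted p = 7.40e-14 by edgeR).

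Phosphofructokinase commits sugar to glycolysis, and its tetramers are built from liver, muscle and platelet subunits. All 3 subunit genes were higher. Pfkl, the liver subunit (chromosome 10 from 77986947 to 78009807), went from 132, 139, 128 and 119 CPM to 294, 283, 309 and 279 CPM (log2 fold change 1.17 with an SE of 0.046, adjusted p = 2.12e-14 by edgeR). Pfkp, the platelet subunit (chromosome 13 from 6579874 to 6649060), went from 47.6, 57.2, 42.7 and 40.4 CPM to 159, 152, 174 and 144 CPM (log2 fold change 1.74 with an SE of 0.076, adjusted p = 1.08e-13 by edgeR). Pfkm, the muscle subunit, went from 9.90 ± 0.867 to 12.2 ± 0.986 CPM (log2 fold change 0.30 with an SE of 0.081, adjusted p = 0.00278 by edgeR). Pfkl stayed the most abundant subunit per kilobase. Relative to it, Pfkp stood at 0.366 to 0.449 in the wild type and 0.563 to 0.614 in the knockout. Pfkm stood at 0.0900 to 0.111 and 0.0516 to 0.0587, so the share of Pfkp was higher and that of Pfkm lower against Pfkl, with no overlap between the genotypes. The subunits summed to 186 ± 16.3 CPM in wild-type cells, and 460.5 ± 26.8 CPM in knockout cells.

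The Pfkfb genes encode bifunctional enzymes that make and break a signalling sugar phosphate, which activates phosphofructokinase and inhibits gluconeogenesis. Pfkfb1 is the liver form, Pfkfb2 the heart form and Pfkfb3 the inducible form with high kinase activity. They moved in opposite directions. Pfkfb3 (chromosome 2 from 11471430 to 11554071) rose from 25.9, 32.3, 28.8 and 31.7 CPM to 102, 93.2, 119.96 and 94.2 CPM (log2 fold change 1.79 with an SE of 0.073, adjusted p = 4.07e-14 by edgeR). Pfkfb2 (chromosome 1 from 130689043 to 130729253) fell from 64.1, 64.3, 64.3 and 62.5 CPM to 35.8, 34.7, 30.99 and 34.2 CPM (log2 fold change -0.91 with an SE of 0.044, adjusted p = 6.17e-13 by edgeR). Pfkfb1 fell from 7.64, 7.68, 6.47 and 6.61 CPM to 4.06, 4.05, 3.29 and 4.50 CPM (log2 fold change -0.84 with an SE of 0.11, adjusted p = 1.24e-06 by edgeR). None of these 3 genes overlapped between the genotypes. Pfkfb2 was the most abundant of the family per kilobase in the wild type, at 24.1 ± 0.322 CPM per kilobase against 8.66 ± 0.864 for Pfkfb3, and in the knockout the order was the other way, at 12.8 ± 0.785 against 29.9 ± 3.62. The ratio of Pfkfb3 to Pfkfb1 was 1.72 to 2.44 in the wild type and 10.6 to 18.5 in the knockout, whereas that of Pfkfb2 to Pfkfb1 overlapped, at 5.49 to 6.52 and 4.98 to 6.19. Pfkfb4 was low, at 0.968 ± 0.0957 and 0.955 ± 0.299 CPM (log2 fold change -0.03 with an SE of 0.24, adjusted p = 0.934 by edgeR). Tigar, a phosphatase that lowers the same signalling metabolite and is known as a p53 target, fell from 32.1, 35.1, 36.3 and 36.2 CPM to 27.4, 25.3, 25.4 and 27.9 CPM (log2 fold change -0.40 with an SE of 0.054, adjusted p = 2.64e-06 by edgeR).

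**Figure D2:**
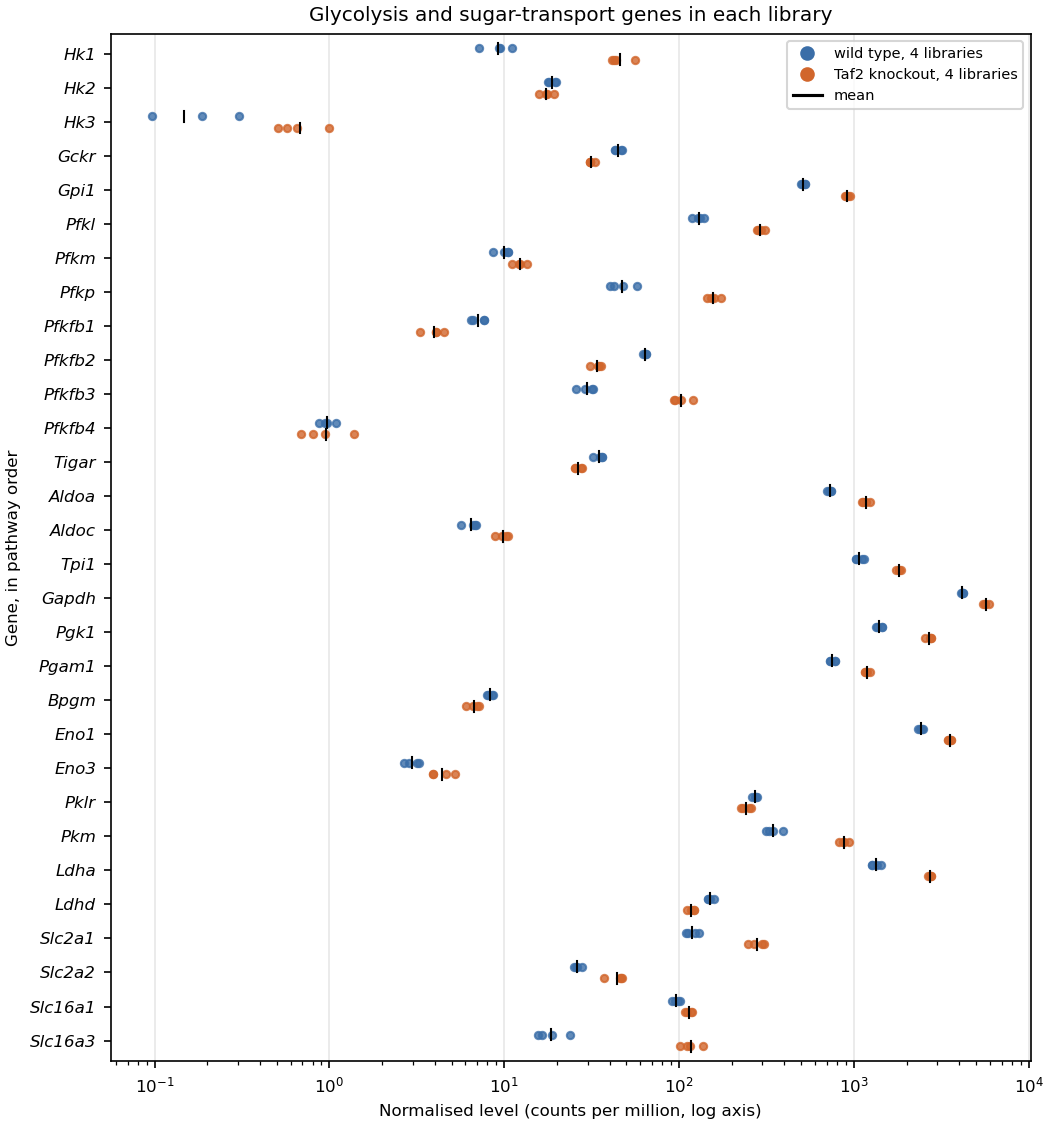
Normalised level (CPM, log axis) of the 30 tested genes in each library, in pathway order, with wild type in blue, knockout in orange and black ticks at the genotype means. Points overlap between genotypes for Hk2 and Pfkfb4 and for no other gene drawn; a wild-type library with 0 counts of Hk3 has no point.

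Aldolase and triose phosphate isomerase cut and even out the sugar into triose phosphates. Aldoa, the muscle and general aldolase, stood at 741, 737, 705 and 718 CPM in wild-type cells, and 1177, 1118, 1243 and 1133 CPM in knockout cells (log2 fold change 0.69 with an SE of 0.038, adjusted p = 3.60e-12 by edgeR). Aldoc, the brain form, went from 6.49 ± 0.579 to 9.86 ± 0.722 CPM (log2 fold change 0.60 with an SE of 0.087, adjusted p = 5.47e-06 by edgeR). Tpi1 went from 1106, 1136, 1026 and 1031 CPM to 1815, 1809, 1860.2 and 1743 CPM (log2 fold change 0.75 with an SE of 0.039, adjusted p = 1.46e-12 by edgeR). The 3 genes rose by 0.60 to 0.75 on the log2 scale, without overlap between the genotypes.

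The payoff steps that follow yield ATP and NADH, and their enzymes gave some of the most abundant transcripts of the pathway. Gapdh (chromosome 6 from 125161852 to 125166467) stood at 4200.3, 4204, 4139 and 4101 CPM in wild-type cells, and 5639, 5454, 5910.3 and 5644 CPM in knockout cells (log2 fold change 0.44 with an SE of 0.035, adjusted p = 8.08e-10 by edgeR). Pgk1, phosphoglycerate kinase (chromosome X from 106187100 to 106203699), stood at 1443, 1451, 1339 and 1353 CPM and 2753, 2735, 2752 and 2563 CPM (log2 fold change 0.95 with an SE of 0.038, adjusted p = 2.95e-14 by edgeR). Eno1, the general enolase, stood at 2443, 2482, 2379 and 2321 CPM and 3571, 3474, 3588 and 3464 CPM (log2 fold change 0.55 with an SE of 0.034, adjusted p = 2.44e-11 by edgeR). Each was higher in all 4 knockout libraries than in any wild-type library. The rise of Gapdh, often used as a reference transcript, was 1.36-fold and that of Pgk1 1.93-fold. The deposited values of Gapdh in 7 libraries and of Eno1 in 8 were not whole, as RSEM gives where it divides reads between genes, so these 2 levels are less certain. The other 32 genes had whole values.

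Pgam1, the phosphoglycerate mutase of most tissues, went from 753 ± 28.7 to 1186 ± 39.8 CPM (log2 fold change 0.66 with an SE of 0.037, adjusted p = 5.81e-12 by edgeR). Its muscle relative Pgam2 had 0 counts in all 8 libraries, which allows up to 3 counts, or 0.127 to 0.157 CPM by library, for counting error only. Bpgm, which diverts a glycolytic intermediate into the haemoglobin effector bisphosphoglycerate, was the single payoff gene that fell, from 8.50, 8.12, 8.66 and 7.96 CPM to 7.15, 6.65, 6.01 and 6.96 CPM (log2 fold change -0.31 with an SE of 0.084, adjusted p = 0.00315 by edgeR). Of 9 erythroid markers, 4 were at 0 in all libraries after rounding. Among them were the haemoglobin genes Hba-a2 and Hbb-bt (0.5 in a single library before rounding) and the red cell gene Slc4a1. Another haemoglobin gene, Hba-a1, was detected in every library and was not tested. It went from 0.607 ± 0.242 to 0.134 ± 0.0902 CPM without overlap. Only 2 of these markers were tested. Alas2 fell from 25.8 ± 1.03 to 19.2 ± 0.764 CPM. Tfrc, the most abundant, was not called, with 187 ± 9.81 CPM before and 181 ± 24.4 CPM after the loss of Taf2 (edgeR adjusted p = 0.554). The muscle enolase Eno3 rose from 2.99 ± 0.264 to 4.40 ± 0.636 CPM (log2 fold change 0.56 with an SE of 0.13, adjusted p = 8.59e-04 by edgeR), and its ratio to Eno1 overlapped between the genotypes, at 0.00167 ± 0.000141 and 0.00168 ± 0.000257 per kilobase. The neuronal enolase Eno2 had 0 to 3 counts in a library and was not tested.

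Pyruvate kinase makes the pyruvate and the last ATP, and its 2 genes moved apart. Pkm, which encodes the muscle and proliferating-cell forms (chromosome 9 from 59656576 to 59679372), stood at 346, 391, 315 and 328 CPM in wild-type cells, and 883, 868, 937 and 819 CPM in knockout cells (log2 fold change 1.34 with an SE of 0.054, adjusted p = 3.30e-14 by edgeR). Pklr, which encodes the liver and red cell forms (chromosome 3 from 89136122 to 89146815), stood at 260.2, 270.3, 277 and 279.8 CPM and 258, 252, 227 and 232 CPM (log2 fold change -0.17 with an SE of 0.042, adjusted p = 0.00212 by edgeR). The fall of Pklr was small, to 89.2% of the wild-type level, and its closest libraries, wild-type replicate 1 and knockout replicate 1, stood at 260.2 and 258 CPM. Pkm exceeded Pklr per kilobase in the wild-type cultures already, at a ratio of 1.45 to 1.84, and did so by more in the knockout, at 4.35 to 5.25. Counts per gene do not part the 2 splice forms of Pkm.

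Lactate dehydrogenase and the monocarboxylate carriers handle the end product. Ldha (chromosome 7 from 46842274 to 46855627), whose subunit favours lactate formation, stood at 1363, 1433, 1269 and 1268 CPM in wild-type cells, and 2762, 2729, 2765 and 2638 CPM in knockout cells (log2 fold change 1.03 with an SE of 0.040, adjusted p = 2.12e-14 by edgeR). Slc16a3, the lactate exporter MCT4 (chromosome 11 from 120948484 to 120959000), had 18.9, 23.6, 16.3 and 15.6 CPM and 116, 111, 137 and 101 CPM (log2 fold change 2.64 with an SE of 0.095, adjusted p = 6.47e-15 by edgeR), the largest change among the tested genes of the set, at a fold of 6.25. Slc16a1, the carrier MCT1 that can also take lactate up, had 91.5, 101, 95.05 and 98.7 CPM and 111, 118, 117 and 108 CPM (log2 fold change 0.24 with an SE of 0.041, adjusted p = 4.18e-05 by edgeR). All 3 rose without overlap between the genotypes. Per kilobase Slc16a3 was below Slc16a1 in every wild-type library, at a ratio of 0.293 to 0.433, and above it in every knockout library, at 1.74 to 2.16. Ldhd, a mitochondrial dehydrogenase of D-lactate, fell from 150.4, 147, 146 and 158 CPM to 121, 117, 122 and 111 CPM (log2 fold change -0.35 with an SE of 0.040, adjusted p = 2.18e-07 by edgeR). Ldhb, the heart subunit, had 3, 2, 2 and 2 counts in the wild-type libraries and 7, 3, 2 and 7 in the knockout libraries, too few for the test.

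**Figure D3:**
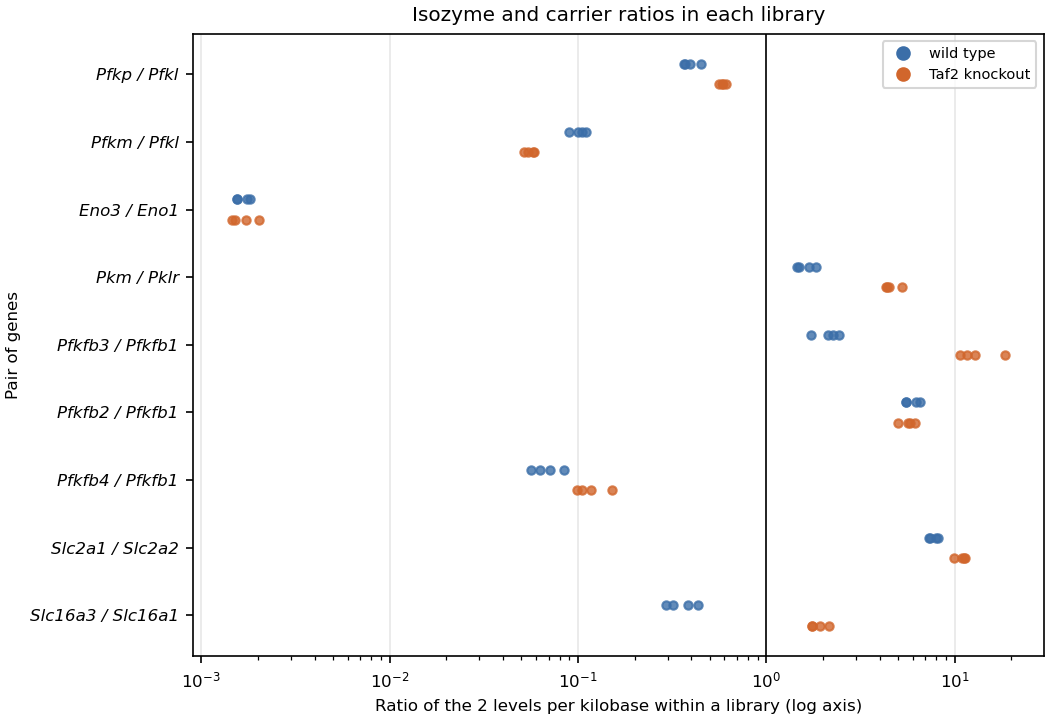
Ratio of the levels per kilobase of 9 pairs of genes within each library (log axis), with wild type in blue and knockout in orange; ratios above 1 mean that the first gene of the pair is the more abundant. The genotypes are apart for 7 pairs and overlap for Eno3 to Eno1 and Pfkfb2 to Pfkfb1, and the ratio of Slc16a3 to Slc16a1 is below 1 in the wild type and above 1 in the knockout.

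These ratios do not depend on the scaling between libraries, since both genes come from the same library. Of 13 pairs considered, 4 held a gene with under 10 counts and are not described. The genotypes did not overlap for 7 of the other 9, beside 54.7% of all tested genes for which the level itself did not. The ratios that differed most were those of Pfkfb3 to Pfkfb1 (6.27-fold between the genotype means), Slc16a3 to Slc16a1 (5.30-fold) and Pkm to Pklr (2.85-fold). Of the other pairs that were apart, Pfkfb4 to Pfkfb1 (1.72-fold), Pfkp to Pfkl (1.49-fold) and Slc2a1 to Slc2a2 (1.41-fold) were also higher in the knockout. Pfkfb4, with 16 to 29 counts in a library, was not called itself, while Pfkfb1 was lower. Pfkm to Pfkl was lower (0.548-fold). Sums of macrophage and endothelial markers were higher in the same knockout libraries, with or without the 2 most abundant genes of each list. Without those genes the endothelial sums were 50.4 to 56.3 and 129 to 134 CPM. The part of other cell types in these ratios was not tested.

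Per kilobase, the order of levels in the wild type ran from Gapdh (3090.4 ± 36.96 CPM per kilobase) through Eno1 (1187 ± 34.9), Ldha (839.6 ± 50.5), Pgk1 (765 ± 32.1) and Tpi1 (669 ± 34.3) to Aldoa (480.04 ± 11.04), Pgam1 (424 ± 16.2), Gpi1 (178 ± 5.54) and Pkm (154 ± 14.8). Among these, Gpi1 and Pkm were the only neighbours in the order whose wild-type libraries overlapped, and over the 33 genes detected 13 of 32 neighbouring pairs did. In the knockout 15 of 32 pairs overlapped, Eno1 (1739 ± 31.7) and Ldha (1715 ± 37.4) among them, and Pkm (392 ± 21.8) stood above Gpi1 (318 ± 9.80). Genes of phosphofructokinase, hexokinases and carriers lay far lower in the wild type. Pfkl was at 34.7 ± 2.32, Slc2a1 at 36.3 ± 3.02, Slc16a1 at 21.8 ± 0.957 and Hk1 at 2.27 ± 0.393 CPM per kilobase.

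Because Taf2 is part of a core promoter factor and many of these genes moved together, their promoters were examined in the RefSeq table of build GRCm38.p6 (mm10), which gives 250 bases before and 50 bases after each annotated start. It held 51 promoters of 33 of the 34 genes, 11 genes having several, and which start is used in these cells was not measured. The stretches printed next, chosen after their values were seen, are the 250 bases before a start of Ldha (strand +, chr7:46845554-46845803), of Slc16a3 (strand +, chr11:120948817-120949066), the gene with the largest rise, and of Pklr (strand +, chr3:89136373-89136622), the liver isozyme that fell. Capitals mark ACGTG or GCGTG read on either strand, the core that hypoxia-inducible factors are known to bind.
Ldha: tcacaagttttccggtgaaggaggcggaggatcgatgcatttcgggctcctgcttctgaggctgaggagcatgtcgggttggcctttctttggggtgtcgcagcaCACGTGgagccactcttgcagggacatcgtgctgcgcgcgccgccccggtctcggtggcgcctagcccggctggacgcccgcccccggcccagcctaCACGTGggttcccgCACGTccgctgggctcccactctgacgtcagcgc
Slc16a3: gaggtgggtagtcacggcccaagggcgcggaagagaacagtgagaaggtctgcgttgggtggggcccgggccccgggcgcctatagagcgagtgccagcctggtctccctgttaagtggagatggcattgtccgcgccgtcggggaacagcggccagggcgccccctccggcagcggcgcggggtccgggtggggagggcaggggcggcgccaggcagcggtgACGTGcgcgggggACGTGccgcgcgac
Pklr: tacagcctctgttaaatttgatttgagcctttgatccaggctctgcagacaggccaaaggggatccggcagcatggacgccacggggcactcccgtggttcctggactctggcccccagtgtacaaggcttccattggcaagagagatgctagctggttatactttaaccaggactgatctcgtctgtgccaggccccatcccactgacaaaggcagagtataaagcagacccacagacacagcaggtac
The Ldha stretch held 5 matches in 3 capital runs, because a CACGTG E-box, present 2 times, counts on both strands. The Slc16a3 stretch held 2 matches, and the Pklr stretch 0 matches and 1 TATAAA. Ldha and Pklr each have another listed start. Over the 250 bases before and 50 bases after it, the other Ldha start held 2 matches and 0 CACGTG. The printed Ldha start held 7 matches and 2 CACGTG over the same span. The other Pklr start held 0 matches as well, and 0 TATAAA. The E-boxes of Ldha and the TATAAA of Pklr thus depend on the start chosen.

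Over the whole 300-base windows, 25 of 33 genes of the set (75.8%) had ACGTG or GCGTG on either strand in at least 1 of their listed promoters, a share that grows with the number of promoters a gene has, among them 18 of the 21 that rose and 4 of the 7 that fell. Of all genes with a listed promoter, 46.7% had it, and of those tested here 67.7%. CACGTG, which contains ACGTG, was found in 6 genes (18.2%, against 8.09% of all and 11.9% of tested genes). GGGCGG, the GC box, was found in 21 (63.6%, against 38.2% and 68.2%). TATAAA was found in 4 (12.1%, against 15.7% and 9.17%), 1 of which rose and 2 fell. The median GC content of the set's promoters was 57.0%, against 52.7% for the table and 60.7% for tested genes. A match is a description of letters and was not tested as a binding site.

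Other lists of sugar metabolism had medians nearer to 0 than the set's; the difference between lists was not tested. Of 40 other glycolytic, sugar-entry and carrier genes, 27 were tested, 13 were higher and 9 lower, with a median log2 fold change of 0.05. Over all tested genes 30.2% were higher and 31.2% lower. Bsg, the membrane partner that carries monocarboxylate transporters to the cell surface and the most abundant gene of the list, rose from 623 ± 54.5 to 1184 ± 71.9 CPM (log2 change 0.93, SE 0.053). The phosphoglucomutase family genes Pgm2 and Pgm1 rose by 0.98 (SE 0.043) and 0.59 (SE 0.045), and Sord, the sorbitol dehydrogenase gene, by 0.91 (SE 0.051). Gpd1, which draws triose phosphate off to glycerol phosphate, fell from 203 ± 5.27 to 114 ± 4.57 CPM (log2 change -0.83, SE 0.038), and Tkfc, the triokinase of fructose breakdown, from 438 ± 18.99 to 252 ± 19.6 CPM (log2 change -0.79, SE 0.047).

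The enzymes that bypass glycolysis in glucose production were mixed, with 4 of 8 higher, 3 lower and a median log2 fold change of 0.17. The shares over all tested genes were 30.2% higher and 31.2% lower. Pck1 and G6pc, the genes of phosphoenolpyruvate carboxykinase and the glucose-releasing phosphatase, rose from low levels, Pck1 from 1.59 ± 0.177 to 28.5 ± 6.32 CPM (log2 change 4.17, SE 0.16) and G6pc from 0.588 ± 0.143 to 3.49 ± 0.446 CPM (log2 change 2.57, SE 0.20). The transporter gene Slc37a4 and Fbp1 rose by 0.39 and 0.24, and Pck2 and Fbp2 fell by 0.63 and 0.97 on the log2 scale. Fbp2, counted among the 3 lower, had only 4 to 19 counts in a library and under 10 in every knockout library. It passed the filter on low counts through the wild type alone and so had to differ. The most abundant gene, Pcx, was at 231 ± 7.87 and 248 ± 19.5 CPM (edgeR adjusted p = 0.0538). In the pentose phosphate pathway 4 of 10 were higher and 1 lower, with a median of 0.10. In all, 50% of that list was called, below the 61.4% of all tested genes. Its entry enzyme G6pdx had a log2 fold change of 1.20 (SE 0.047), beside those of Rpia (0.23), Tkt (0.18), Taldo1 (0.16) and H6pd (-0.13).

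Among known regulators of glycolytic transcription 14 of 23 were higher and 6 lower, with a median of 0.19, beside 30.2% higher and 31.2% lower over all tested genes. The prolyl hydroxylase genes Egln3 and Egln1, whose enzymes mark hypoxia-inducible factors for breakdown and which those factors are known to induce, rose from 37.04 ± 4.89 to 256 ± 29.8 CPM (log2 change 2.79, SE 0.080) and from 74.1 ± 1.63 to 194 ± 21.5 CPM (log2 change 1.39, SE 0.058). Hif1a, which encodes the oxygen-regulated subunit itself, went the other way, from 268, 290.3, 286 and 302 CPM to 126, 144, 128 and 151 CPM (log2 fold change -1.06 with an SE of 0.052, adjusted p = 6.17e-13 by edgeR). Txnip, a glucose-induced inhibitor of glucose uptake, rose from 7.05 ± 0.545 to 38.6 ± 4.41 CPM (log2 change 2.46, SE 0.084). Klf10 and Mxi1, which encode repressors, rose by 1.71 (SE 0.088) and 1.02 (SE 0.053).

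**Figure D4:**
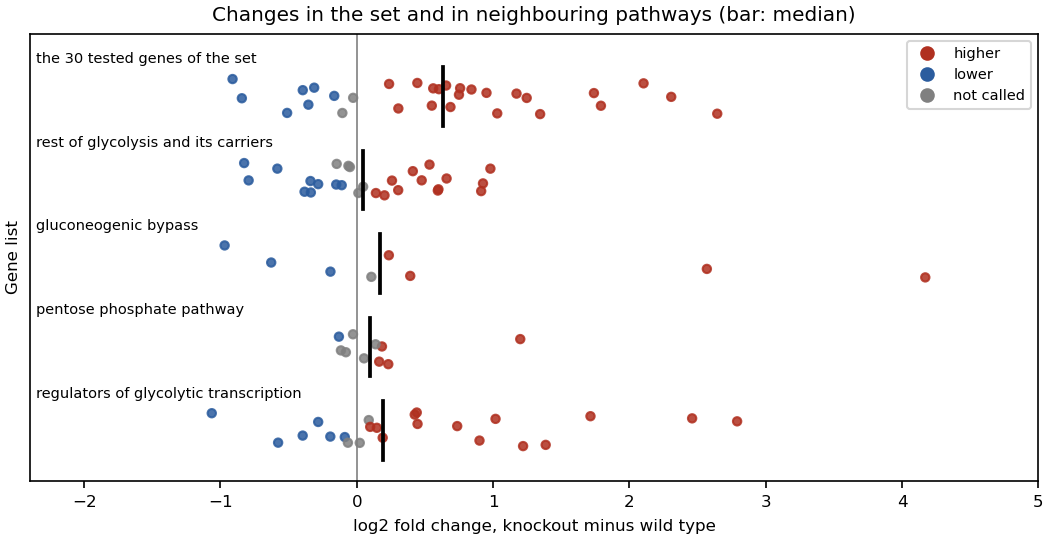
Log2 fold change of each tested gene of the set and of 4 neighbouring lists, each point a gene (vertical jitter only parts the points), red or blue where the test was passed and grey where it was not, with a bar at the median. The median of the set is 0.63, and those of the other lists lie between 0.05 and 0.19.

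Of the genes, 8 lie on chromosome 6. Eno2 (chromosome 6 from 124760053 to 124769673) was near 0 in all libraries, while Tpi1 (from 124810586 to 124814158) and Gapdh (from 125161852 to 125166467) were abundant and rose by 0.75 and 0.44 on the log2 scale. Tigar (from 127085116 to 127109552), further along, fell by 0.40.

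Among the 21 genes that rose, the libraries of a genotype were often high or low for the same genes. Wild-type replicate 2 was the highest wild-type library for 17 of them and wild-type replicate 3 the lowest for 11. Among the knockout libraries, replicate 3 was the highest for 18 and replicate 4 the lowest for 11. The coefficient of variation between the libraries of a genotype ran from 1.20% (Gapdh, wild type) to 19.5% (Slc16a3, wild type), leaving aside Hk3 at 88.02% in the wild type.

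**Figure D5:**
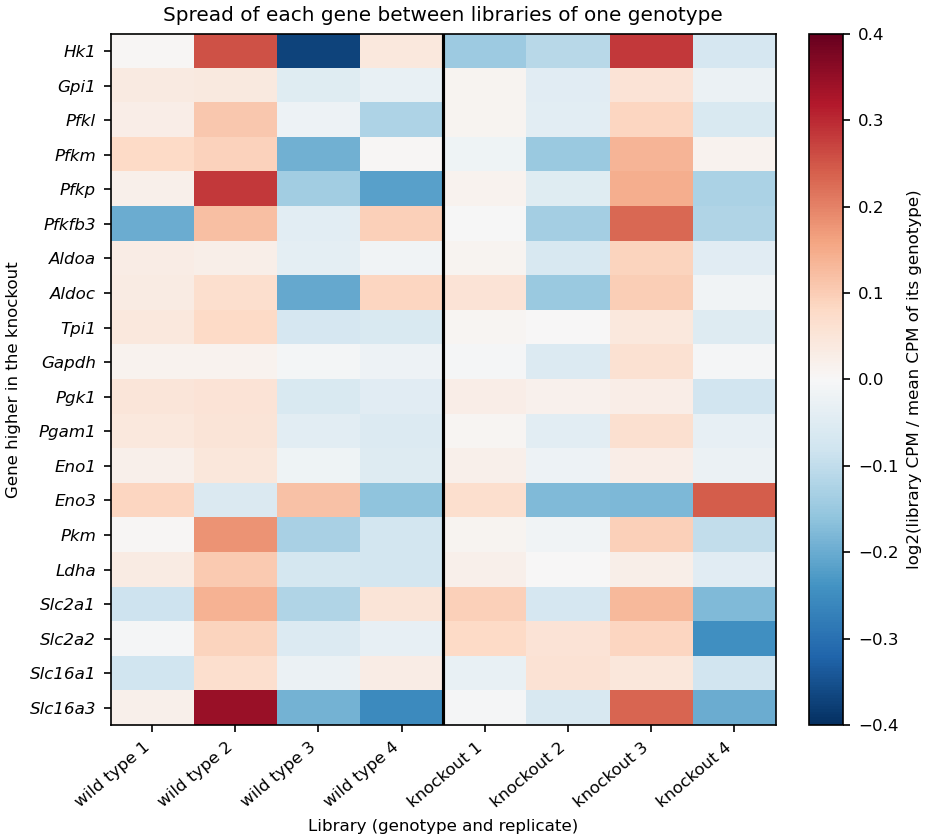
Level of 20 genes that rose (rows, Hk3 left out) in each library (columns), as the log2 of its CPM over the mean CPM of its own genotype. Red marks a library above its genotype's mean and blue one below it, and the columns of wild-type replicate 2 and knockout replicate 3 are red in most rows.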

How the data were processed

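RNA from plated hepatocytes of 4 wild-type and 4 Taf2 knockout libraries was sequenced. The authors deposited expected counts per gene; the submitters' processing notes name RSEM and build mm10, and the sources used here give neither its version nor the annotation release, though the table lists RefSeq transcripts. Of the values, 2.85% were not whole (tolerance 0.001), and all were rounded to whole numbers. A further 8 columns of values in the table match no sample used here and were left out.

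Genes kept by filterByExpr in edgeR 4.0.16 (minimum count 10, minimum total 15; 12122 of 24411) were scaled by TMM and tested by genotype with the quasi-likelihood test under R 4.3.3, with Benjamini-Hochberg adjustment over all genes at 0.05. The code was tested on simulated data. Members and gene lists were chosen with earlier results of these data known. Named from each other list were up to 6 called genes with the smallest adjusted p and the most abundant gene. Levels per kilobase use the median length of the GENCODE transcripts that match the RefSeq transcripts listed for a gene in the table, and coordinates and promoters come from RefSeq tables of GRCm38.p6. Libraries of the same genotype differed beyond counting noise (chi-square per degree of freedom 3.16 to 8.60), and the biological coefficient of variation was 4.57%. Totals of 18947059 to 23933589 counts set the precision, and floors cover counting error only. As alternatives, scaling was done by RLE or the upper quartile and testing by DESeq2 1.42.0 or voom in limma 3.58.1; further settings were other filters, thinning, the replicate number as a term, and leaving out each library. Some genes of the lists and some planned ratios are not reported here.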

Additional observations from a re-analysis of the deposited data

Results flagged for a closer look

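Each of 60 groups of 4 libraries (30 tested genes in both genotypes) was examined for a library whose gap to the nearest of the others, over the whole range of the group, passed 0.829. This flagged 5 groups, where chance flags about 1 in 20. Hk1 in knockout replicate 3 was at 55.7 CPM, above 41.5 to 43.8 CPM in the other knockout libraries. Gckr in knockout replicate 1 was at 33.2 CPM, above 30.9 to 31.03 CPM. Pfkfb2 in wild-type replicate 4 was at 62.5 CPM, below 64.1 to 64.3 CPM. Pgk1 in knockout replicate 4 was at 2563 CPM, below 2735 to 2753 CPM, and Slc2a2 in the same library was at 37.3 CPM, below 45.9 to 46.9 CPM. For all 5 genes the flagged library lay on the same side of the other genotype's libraries as the rest of its own.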

How the results depend on the processing

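Under the 16 alternatives set at the start, 21 genes of the set were called higher and 7 lower each time, except that the stricter filter, which left Hk3 out of the test, gave 20 higher. Leaving Hk3 out for its counts under the minimum in every wild-type library, an alternative chosen after seeing the data, also gave 20 and 7. No call of a gene of the set was lost or turned; Hk3 ranged from 1.74 to 2.72 on the log2 scale, Slc16a3 from 2.56 to 2.77, Hk1 from 2.20 to 2.40 and Pklr from -0.19 to -0.13. Pfkfb4, never called, ranged from -0.24 to 0.11. Over all genes 3663 were higher and 3784 lower, with 3491 to 3626 higher and 3483 to 3663 lower when a library was left out, and 3479 and 3411 with DESeq2. Upper-quartile scaling gave 4001 and 3435. No scaling moved the median of all genes by more than 0.024 on the log2 scale. With the replicate block, 3666 genes were higher and 3771 lower, and 21 and 7 in the set. The numbers did not pair the samples: correlations of the deviations of same-numbered libraries were 0.011, -0.069, 0.006 and -0.008, and no library correlated best with its own number. Depth limits what can be said of Eno2, Ldhb and Slc2a3. Without a filter their log2 fold changes were 0.14, 0.97 and 1.66 (SE 0.88, 0.62 and 0.97; edgeR adjusted p = 0.92, 0.208 and 0.162).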
